A study of Monodelphis domestica with 6 samples.

Results

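The genes described here are transcription factors that build mesenchyme and mark position along the body and limb in the gray short-tailed opossum, *Monodelphis domestica*, measured in neonatal skin fibroblasts (neoSFs) and in induced pluripotent stem cells made from them (monoiPSCs). They were chosen by name, with earlier results of these data known. Of the 43 gene symbols listed, 38 had a row among the 35665 genes of the deposited tables. TBX1, DLX5, DLX6, OSR2 and MEIS3 were not analysed here. Of the 38, 34 were expressed highly enough to be tested, with a normalized read count (NRC, the raw count times 1 scaling factor per library) of at least 20 in both neoSF or in all 4 monoiPSC libraries. Of these 34, 21 reached that level in both cell types, 11 in the neoSFs alone and 2 in the monoiPSCs alone, so that the last 13 entered the test through the group in which they were higher.

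RNA-seq was done on 6 libraries of wild-type cells. The 2 neoSF libraries came from primary cultures of back skin of neonatal female pups, 1 culture of each of the fully inbred strains FD2M1 and LSD1, expanded for a few passages in fibroblast medium with serum. The 4 monoiPSC libraries came from 1 FD2M1 and 1 LSD1 line at passages 15 and 25 (P15 and P25). The lines had been derived from the neoSFs by nucleofection with episomal OriP/EBNA plasmids carrying human OCT4, SOX2, NANOG, KLF4, LIN28 and cMYC, and were kept feeder-free with LIF, bFGF and the ROCK inhibitor Y27632. Since each strain gave 1 line, strain and line cannot be told apart, and the passages of a line are not independent cultures, so the p-values measure the spread between these libraries only. Sequencing also differed, with short single-end reads for neoSFs and longer paired-end reads from another provider for monoiPSCs, so cell type and sequencing cannot be told apart.

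The T-box, homeodomain, basic helix-loop-helix, EBF and NR2F proteins listed here bind DNA and act in the embryo as selectors of place and lineage. In skin, fibroblasts of different body regions are known to keep distinct sets of such factors in culture. In pluripotent cells most of them are regarded as lineage genes that are silent or low until differentiation. EYA proteins do not bind DNA themselves and act as partners of SIX2, SIX4 and their relatives, while PBX and MEIS proteins are partners of HOX and other homeodomain proteins.

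The raw counts summed to 14278794 and 16982978 in the neoSF libraries and to between 28684754 and 35564261 in the monoiPSC libraries, so low levels are measured less precisely in neoSFs. The summed NRC of 10 fibroblast markers was 1.63e+06 to 1.77e+06 in neoSFs and 6493 to 10836 in monoiPSCs, and that of 10 pluripotency markers was 185 to 321 in neoSFs and 14608 to 19144 in monoiPSCs. POU5F1, SOX2, NANOG, LIN28A and PRDM14 were at 3 counts or fewer in both neoSF libraries. Some markers of other lineages were also present in the monoiPSC libraries. The sum of 7 skeletal myoblast markers was 352 to 1318 in neoSFs and 1514 to 11219 in monoiPSCs, highest in LSD1 P25, and that of 6 melanocyte markers was 257 to 408 in neoSFs and 5343 to 16109 in monoiPSCs, highest in LSD1 P15. The sums were 55.6 to 171 in neoSFs and 1483 to 2890 in monoiPSCs for 3 keratinocyte markers, and 44.6 to 98.2 and 421 to 620 for 6 endothelial markers. Only these 3 of the 8 keratinocyte markers listed had a row. TP63 among them was at 3 counts or fewer in every monoiPSC library. So were CDH5 and ERG of the endothelial list and NKX2-5 and GATA4 of the cardiac mesoderm list, so a sum can rest on a few genes. For 5 cardiac mesoderm markers the sum was 1504 to 1565 in neoSFs, 2504 in LSD1 P25 and 260 to 538 in the other monoiPSC libraries, for 4 macrophage markers 114 to 128 in neoSFs and 54.9 to 71.4 in monoiPSCs, and for 6 neural progenitor markers 8192 to 24911 and 14620 to 20495. Their part in the results below was not tested. In bulk RNA, a smaller share of expressing cells and less RNA per cell cannot be told apart.

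Of the 34 tested factors, 24 (70.6%) were differentially expressed (DE) between monoiPSCs and neoSFs, 16 lower (47.1%) and 8 higher (23.5%) in monoiPSCs. Genes were called DE when edgeR's quasi-likelihood test gave a p, adjusted by Benjamini-Hochberg, no higher than 0.05 and the fold change was 2 or more. Over all 13072 genes tested, 45.9% were DE, 21.6% lower and 24.3% higher in monoiPSCs. The share that was higher was close to that of all genes and the share that was lower was larger. Of the factors called lower, TBX3, TBX15, TBX18, DLX3, DLX4, ALX4, EYA4, OSR1 and BARX1 reached the level for testing in neoSFs alone. Of those called higher, TCF21 and MEOX1 reached it in monoiPSCs alone. The shares and the median include these genes, so they do not measure a tendency of the list apart from the filter. The median log2 fold change, monoiPSC minus neoSF, was -1.38 for the factors and 0.08 for all genes. Without the FD2M1 neoSF library the median of the factors was -0.41. The NRCs of the neoSF and the monoiPSC libraries did not overlap for 24 of the 34 factors (70.6%), against 73.2% of all genes tested. By family, the T-box genes had 1 higher and 3 lower of 4 tested, the DLX and MSX genes 3 lower of 6, the paired-type genes 3 lower of 4 and the TALE class (MEIS, PBX and IRX) 3 higher and 1 lower of 5. The SIX2, SIX4 and EYA genes had 1 higher and 2 lower of 5, the OSR1, TCF21, HAND2, EBF, MEOX and BARX1 genes 2 higher and 3 lower of 8, and the NR2F genes 1 higher and 1 lower of 2. The families were not tested against each other, and the lower calls of MSX2 and SHOX2 turned in sign without 1 neoSF library.

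**Figure D1:**
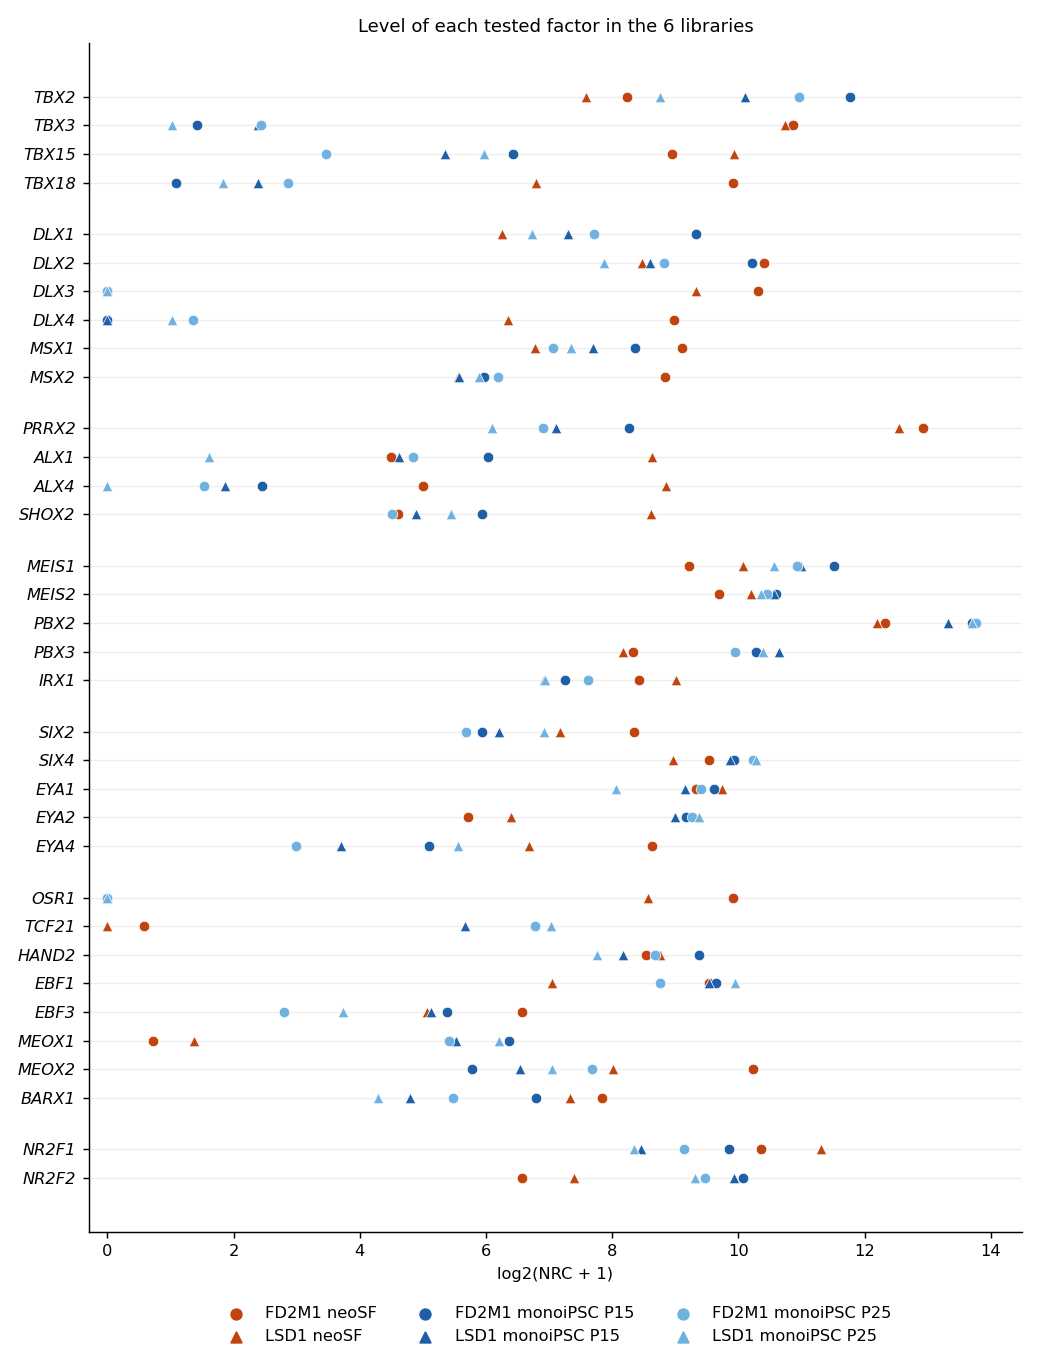
Level of each of the 34 tested factors as log2(NRC + 1) in each of the 6 libraries (orange, neoSF; dark blue, monoiPSC P15; light blue, monoiPSC P25; circles, FD2M1; triangles, LSD1), grouped by family. TBX3, DLX3, OSR1 and PRRX2 stand far to the right in both neoSF libraries, TCF21, MEOX1 and EYA2 in the 4 monoiPSC libraries, and the neoSF libraries lie far apart for TBX18, DLX1, MSX2, ALX1, ALX4 and SHOX2.

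The T-box genes gave the largest fall among the factors above the floor of 3 counts a library, and also a rise. TBX3 (gene 100027044, MonDom5 chromosome 3), a repressor needed for limb and mammary development, had NRCs of 1867 in FD2M1 and 1706 in LSD1 neoSFs. In the monoiPSCs it had 1.68 and 4.39 in FD2M1 P15 and P25 and 4.21 and 1.03 in LSD1 P15 and P25, from 2 to 8 counts a library. It was therefore high in both neoSF cultures and nearly absent from every monoiPSC library, with a log2 fold change of -9.18 ± 0.39 (SE, n = 2 and 4; edgeR quasi-likelihood adjusted p = 9.69e-06). TBX2 (chromosome 2), its close relative and likewise a repressor, moved the other way. Its NRC was 299.9 and 191.5 in FD2M1 and LSD1 neoSFs, 3492 and 1980 in FD2M1 P15 and P25, and 1094 and 432.2 in LSD1 P15 and P25. All 4 monoiPSC libraries exceeded both neoSF libraries (log2 fold change 2.93 ± 0.83, edgeR quasi-likelihood adjusted p = 0.0169), but they spread 8.08-fold among themselves, and the call was lost without the FD2M1 neoSF library (adjusted p = 0.0545) or the LSD1 neoSF library (adjusted p = 0.0914). Without FD2M1 P15 the value was 2.34 (adjusted p = 0.0215). With the P25 monoiPSC libraries alone the call was also lost (2.39, edgeR quasi-likelihood adjusted p = 0.0522). As a description within libraries, the NRC of TBX2 was 0.112 to 0.161 times that of TBX3 in neoSFs and 260 and 451 times in LSD1 P15 and FD2M1 P25, the monoiPSC libraries with more than 3 counts of TBX3.

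TBX15 and TBX18, neighbours in the T-box family tree that act in the dermis and skeleton of the limb girdles and somites, both fell. TBX15 (chromosome 2) had NRCs of 494.3 and 974.8 in FD2M1 and LSD1 neoSFs, 85.3 and 10.0 in FD2M1 P15 and P25, and 39.97 and 61.3 in LSD1 P15 and P25. Its log2 fold change was -3.80 ± 0.68 (edgeR quasi-likelihood adjusted p = 0.00218). TBX18 (chromosome 2) had 959.1 in FD2M1 but 109.4 in LSD1 neoSFs, and 1.12 to 6.28 in the monoiPSC libraries. The cultures thus differed in how much TBX18 there was to lose, and the log2 fold change of -7.12 ± 0.90 (edgeR quasi-likelihood adjusted p = 0.000466) moved to -4.84 when the FD2M1 neoSF library was left out and to -7.97 when the LSD1 one was. The other 3 T-box genes with a row did not reach the level for testing. TBX5, the forelimb and heart factor, had NRCs of 15.5 and 35.2 in FD2M1 and LSD1 neoSFs and at most 0.992 in monoiPSCs. TBX20, a heart factor, had 9.31 and 3.70 in neoSFs and 1 count in 1 monoiPSC library, LSD1 P25. TBX4, the hindlimb counterpart of TBX5, had 1 count in each neoSF library and 2 in FD2M1 P25, and was at the floor of 3 counts in all 6 libraries. When every gene with a count was tested, TBX5 and TBX20 were called lower (adjusted p = 0.00231 and 0.0185) and TBX4 was not (adjusted p = 0.337). TBX2 lies next to TBX4 and TBX3 next to TBX5 in the order of protein-coding genes of the mMonDom1.pri assembly. Of these neighbours, TBX4 was at the floor in all 6 libraries. TBX5 had 15.5 and 35.2 NRC in neoSFs against at most 0.992 in monoiPSCs.

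Among the DLX and MSX homeobox genes, which pattern the face, the limb ectoderm and the skin appendages, DLX3 and DLX4 fell to the floor in monoiPSCs, while DLX1 and DLX2 overlapped between the cell types. DLX3 (chromosome 2), a regulator of hair, teeth and bone, had NRCs of 1265 in FD2M1 and 637.8 in LSD1 neoSFs and no count in any of the 4 monoiPSC libraries. Against the limit of 3 counts in a monoiPSC library it was at least 474-fold lower (edgeR quasi-likelihood adjusted p = 0.000186). DLX4, its neighbour on chromosome 2, had 502.3 and 80.3 in neoSFs and 0, 1.57, 0 and 1.03 in FD2M1 P15 and P25 and LSD1 P15 and P25. With 4 counts in the monoiPSC libraries and 308 in the neoSF libraries, it was lower by a ratio of 455 (95% counting interval 176 to 1680; edgeR quasi-likelihood adjusted p = 0.000311). The interval covers counting error only. The neoSF cultures differed 6.26-fold in DLX4, and the fitted log2 fold change, which depends on the prior count, was -8.71 with both and -6.90 without the FD2M1 neoSF library.

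DLX1 and DLX2, which specify interneurons and the branchial arches, are an adjacent pair on chromosome 4. DLX1 had NRCs of 641.7 and 75.3 in FD2M1 and LSD1 neoSFs, 643.0 and 209.3 in FD2M1 P15 and P25, and 156.3 and 105.0 in LSD1 P15 and P25. DLX2 had 1356 and 354.7 in neoSFs, 1184 and 449.9 in the FD2M1 line and 387.0 and 232.4 in the LSD1 line. Both genes were higher in FD2M1 than in LSD1 cells in each of the 3 pairs of like libraries. Their log2 fold changes between cell types were -0.26 ± 0.92 and -0.50 ± 0.71 (edgeR quasi-likelihood adjusted p = 0.822 and 0.562). MSX1 (chromosome 5), a repressor of differentiation in limb and tooth mesenchyme, also overlapped, with 548.0 and 108.5 in neoSFs and 132.4 to 327.6 in monoiPSCs (log2 fold change -0.55 ± 0.62, adjusted p = 0.456). MSX2 (chromosome 1), its paralog in skull and skin, had 456.3 in FD2M1 but 45.8 in LSD1 neoSFs, and a narrow 46.4 to 72.3 in monoiPSCs. MSX2 was called lower (log2 fold change -1.97 ± 0.71, edgeR quasi-likelihood adjusted p = 0.0424), but that rested on the FD2M1 neoSF library. Without it the value was 0.46 (adjusted p = 0.441), and without any 1 of the monoiPSC libraries the adjusted p was 0.0701 to 0.099. With strain as a block it was 0.0928 and in limma 0.221.

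The paired-type genes PRRX2, ALX1, ALX4 and SHOX2 act in limb, skull and facial mesenchyme, and 3 of the 4 were called lower in monoiPSCs. PRRX2 (chromosome 1), a mesenchymal factor of fetal dermis, had NRCs of 7756 and 5991 in FD2M1 and LSD1 neoSFs, 308.2 and 118.6 in FD2M1 P15 and P25, and 136.7 and 67.0 in LSD1 P15 and P25. It fell in both strains with little spread between the neoSF libraries (log2 fold change -5.35 ± 0.54, edgeR quasi-likelihood adjusted p = 0.000171). ALX4, ALX1 and SHOX2 were each many times higher in LSD1 than in FD2M1 neoSFs. ALX4 (chromosome 5) had 31.0 in FD2M1 and 459.9 in LSD1 neoSFs and 0 to 4.49 in monoiPSCs (log2 fold change -6.64 ± 1.14, edgeR quasi-likelihood adjusted p = 0.00188), and the value was -3.66 without the LSD1 neoSF library. SHOX2 (chromosome 7), a regulator of the proximal limb skeleton and the heart pacemaker, had 23.4 and 391.1 in neoSFs and 21.8 to 60.1 in monoiPSCs. It was called lower (log2 fold change -2.34 ± 0.87, adjusted p = 0.0477), with groups that overlapped, and without the LSD1 neoSF library the value was 0.82 (adjusted p = 0.39). The call was also lost with strain as a block (-1.87, adjusted p = 0.163), in limma (adjusted p = 0.287) and without any 1 of the monoiPSC libraries (adjusted p of 0.057 to 0.11). ALX1 (chromosome 8) had 21.5 and 396.1 in neoSFs, 64.6 and 27.6 in FD2M1 P15 and P25, and 23.7 and 2.06 in LSD1 P15 and P25. It did not pass in edgeR (log2 fold change -2.74 ± 1.18, adjusted p = 0.0783). DESeq2 called it (adjusted p = 0.0267), and with strain as a block the adjusted p was 0.183. Its value was 0.56 (adjusted p = 0.776) without the LSD1 neoSF library and -3.66 (adjusted p = 0.0238) without the FD2M1 one.

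In the TALE class, which holds the PBX and MEIS cofactors of HOX proteins and the IRX factors, the cofactors were higher in monoiPSCs and IRX1 was lower. PBX3 (chromosome 1) had NRCs of 321.1 and 286.3 in FD2M1 and LSD1 neoSFs, 1237 and 980.6 in FD2M1 P15 and P25, and 1600 and 1345 in LSD1 P15 and P25. PBX2 (chromosome 2) had 5141 and 4686 in neoSFs and 10228 to 13876 in monoiPSCs. MEIS1 (chromosome 1) had 591.8 and 1076 in neoSFs and 1513 to 2926 in monoiPSCs. The lowest monoiPSC value exceeded the highest neoSF value for all 3 genes. Their log2 fold changes were 2.18 ± 0.24 for PBX3, 1.46 ± 0.19 for PBX2 and 1.43 ± 0.34 for MEIS1 (edgeR quasi-likelihood adjusted p = 0.000242, 0.000495 and 0.00856), and the call for MEIS1 was lost without the FD2M1 neoSF library (adjusted p = 0.0501). MEIS2 (chromosome 1), with 823.4 and 1169 in neoSFs and 1309 to 1550 in monoiPSCs, did not overlap either but differed by less than 2-fold (log2 fold change 0.63 ± 0.19, edgeR quasi-likelihood adjusted p = 0.0208). IRX1 (chromosome 3), which patterns digits, lung and kidney, had 343.8 and 513.0 in neoSFs and 120.1 to 195.4 in monoiPSCs and was lower in monoiPSCs (log2 fold change -1.45 ± 0.29, edgeR quasi-likelihood adjusted p = 0.00401).

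The EYA genes, whose proteins are coactivators, split by member. EYA2 (chromosome 1) had NRCs of 51.5 and 82.9 in FD2M1 and LSD1 neoSFs, 571.4 and 610.4 in FD2M1 P15 and P25, and 511.4 and 662.4 in LSD1 P15 and P25, and rose with little spread (log2 fold change 3.23 ± 0.28, edgeR quasi-likelihood adjusted p = 9.84e-05). EYA4 (chromosome 2) had 396.0 and 101.6 in neoSFs and 6.90 to 45.9 in monoiPSCs, and fell (log2 fold change -3.23 ± 0.79, edgeR quasi-likelihood adjusted p = 0.00904), but the call was lost without the FD2M1 neoSF library (-1.95, adjusted p = 0.103). EYA1 (chromosome 3) overlapped, with 644.0 and 851.3 in neoSFs and 266.3 to 778.0 in monoiPSCs (log2 fold change -0.29 ± 0.39, adjusted p = 0.544). Within a library, the NRC of EYA2 was 0.130 and 0.816 times that of EYA4 in FD2M1 and LSD1 neoSFs and 14.4 to 88.4 times in monoiPSCs. SIX2 (chromosome 1), a homeodomain partner of EYA proteins known for keeping nephron progenitors, had 322.4 and 143.9 in neoSFs and 50.3 to 119.9 in monoiPSCs. It was called lower (log2 fold change -1.51 ± 0.45, edgeR quasi-likelihood adjusted p = 0.0212), and this was lost without the FD2M1 neoSF library (-0.83, adjusted p = 0.219), without FD2M1 P15 (adjusted p = 0.0503) and without LSD1 P15 (adjusted p = 0.0527). SIX4 (chromosome 1), a muscle regulator, had 737.8 and 498.7 in neoSFs and 934.3 to 1247 in monoiPSCs, which did not overlap but differed by less than 2-fold (log2 fold change 0.92 ± 0.22, edgeR quasi-likelihood adjusted p = 0.00873). Without the FD2M1 neoSF library the value was 1.22 (adjusted p = 0.00793) and SIX4 was called.

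EYA4 also belongs to a pair of genes that were neighbours in the mMonDom1.pri order. Its neighbour TCF21 moved the other way. TCF21 (chromosome 2), a basic helix-loop-helix factor of visceral mesoderm and of fibroblast precursors, had a raw count of 0.25 in FD2M1 and 0 in LSD1 neoSFs. In monoiPSCs its NRC was 108.6 and 108.5 in FD2M1 P15 and P25 and 49.97 and 128.9 in LSD1 P15 and P25. TCF21 was thus detected in every monoiPSC library and in neither neoSF library once counts were rounded, at least 18.1-fold higher against 3 counts in a neoSF library (edgeR quasi-likelihood adjusted p = 0.000614). MEOX1 (chromosome 2), a homeobox factor of somites, gave the same picture, with 0.65 and 1.58 in neoSFs, 81.6 and 41.6 in FD2M1 P15 and P25, and 44.8 and 72.4 in LSD1 P15 and P25. From 1 count in the neoSF libraries after rounding and 437 in the monoiPSC libraries, the ratio was 74.0 (95% counting interval 13.2 to 2929; edgeR quasi-likelihood adjusted p = 0.000797), and the single neoSF count came from LSD1. MEOX2 (chromosome 8), its paralog in limb muscle and vessels, was lower in monoiPSCs, with 1198 and 255.8 in neoSFs, 53.7 and 204.3 in FD2M1 P15 and P25, and 91.8 and 131.3 in LSD1 P15 and P25 (log2 fold change -2.49 ± 0.65, edgeR quasi-likelihood adjusted p = 0.0118). That call was lost without the FD2M1 neoSF library, where the log2 fold change was -1.005 (adjusted p = 0.217). Within the monoiPSC libraries, the NRC of MEOX1 was 0.204 to 1.52 times that of MEOX2.

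OSR1 (chromosome 1), a zinc-finger factor of connective-tissue progenitors, had NRCs of 960.3 and 380.0 in FD2M1 and LSD1 neoSFs and no count in any monoiPSC library. It was at least 334-fold lower in monoiPSCs (edgeR quasi-likelihood adjusted p = 0.000376), and had reached the level for testing in neoSFs alone. BARX1 (chromosome 6), known from stomach and tooth mesenchyme, had 228.4 and 159.6 in neoSFs, 109.7 and 43.6 in FD2M1 P15 and P25 and 26.8 and 18.5 in LSD1 P15 and P25. Its groups did not overlap (log2 fold change -1.87 ± 0.67, edgeR quasi-likelihood adjusted p = 0.0422), but leaving out any of the libraries other than FD2M1 P15 gave an adjusted p of 0.057 to 0.156, and leaving out FD2M1 P15 moved the value to -2.62. HAND2, EBF1 and EBF3 overlapped between cell types. HAND2 (chromosome 5), a limb and heart factor, had 371.8 and 430.2 in neoSFs and 214.5 to 664.5 in monoiPSCs (log2 fold change 0.07 ± 0.44, adjusted p = 0.9). EBF1 (chromosome 1), which acts in B cells and in fat and mesenchymal precursors, had 740.1 in FD2M1 but 131.7 in LSD1 neoSFs and 432.2 to 979.9 in monoiPSCs (0.87 ± 0.63, adjusted p = 0.259). Without the FD2M1 neoSF library it was called higher (2.58, adjusted p = 0.00589). EBF3 (chromosome 1) had 94.0 and 32.4 in neoSFs and 5.96 to 40.5 in monoiPSCs (-1.31 ± 0.78, adjusted p = 0.178). EBF2, a brown fat factor that was not tested, had 80.2 and 17.4 in neoSFs and 0 to 3.74 in monoiPSCs, and was called lower when every gene with a count was tested (-4.12, adjusted p = 0.00732).

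The 2 orphan nuclear receptors NR2F1 and NR2F2 (COUP-TFI and COUP-TFII), regulators of neural, vascular and mesenchymal development, changed in opposite directions. NR2F1 (chromosome 3) had NRCs of 1313 and 2538 in FD2M1 and LSD1 neoSFs, 924.3 and 558.9 in FD2M1 P15 and P25, and 349.0 and 324.9 in LSD1 P15 and P25. It fell by 1.74 on the log2 scale (SE 0.45, edgeR quasi-likelihood adjusted p = 0.0118), a call lost without the LSD1 neoSF library (-1.18, adjusted p = 0.103). NR2F2 (chromosome 1) had 93.7 and 166.8 in neoSFs, 1075 and 706.4 in FD2M1 P15 and P25, and 976.3 and 636.5 in LSD1 P15 and P25, and rose (log2 fold change 2.79 ± 0.36, edgeR quasi-likelihood adjusted p = 0.000504). Within a library, the NRC of NR2F2 was 0.0713 and 0.0657 times that of NR2F1 in FD2M1 and LSD1 neoSFs, 1.16 and 1.26 times in FD2M1 P15 and P25, and 2.80 and 1.96 times in LSD1 P15 and P25.

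**Figure D2:**
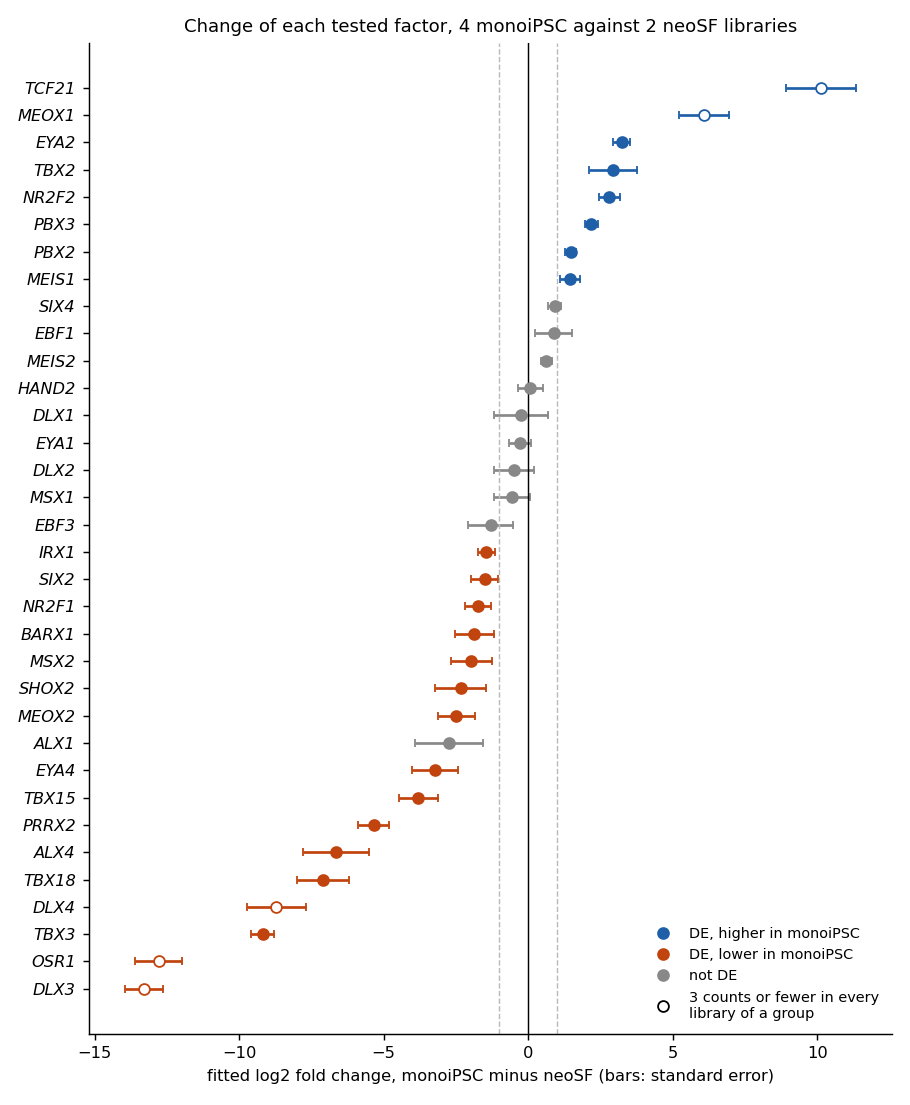
Fitted log2 fold change (monoiPSC minus neoSF) of each tested factor with its standard error, from edgeR on 4 monoiPSC and 2 neoSF libraries (blue, DE and higher; orange, DE and lower; gray, not DE; dashed lines, 2-fold). Open circles are genes with 3 counts or fewer in every library of a group, whose fitted value depends on the prior count and is no limit; TBX3 at -9.18 is the lowest of the filled circles and EYA2 at 3.23 the highest.

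A list of 40 other genes of these families and of their partners was set beside the factors. Of the 39 with a row, 27 were tested, 8 were higher and 6 lower in monoiPSCs and 13 were not DE. Over all 13072 genes tested, 45.9% were DE, 24.3% higher and 21.6% lower. The median log2 fold change was 0.04 for the list and 0.08 for all genes. The largest rises among its well expressed genes were in DACH1 and DACH2, corepressors that work with EYA proteins, which rose from 44.8 and 31.9 to 1238 to 2601 and from 24.7 and 22.2 to 741 to 1015 NRC (log2 fold change 5.79 ± 0.49 and 5.28 ± 0.27, edgeR quasi-likelihood adjusted p = 8e-05 and 1.53e-05). The largest falls were in TWIST2 and PRRX1, both dermal mesenchyme factors, which went from 271.8 and 334.7 to at most 2.10 and from 19807 and 17048 to 299 to 1355 NRC (-8.08 ± 0.75 and -4.70 ± 0.57, edgeR quasi-likelihood adjusted p = 0.000121 and 0.000382). PRRX1 thus fell beside its paralog PRRX2.

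The FD2M1 and LSD1 neoSF cultures differed in these factors more often than in genes at large. With 1 library for each strain and a list chosen with earlier results of these data known, this is a description with no test. In the neoSFs, 34 factors averaged 20 NRC or more, among them TBX5 and EBF2. Of these, 17 (50%) differed more than 2-fold between the cultures, against 14.3% of the 12328 genes that averaged 20 NRC or more. The genes were not matched on level beyond that minimum. At cuts chosen after seeing the data, the factors had 11 of 34 (32.4%) over 4-fold against 4.88%, and 6 of 34 (17.6%) over 8-fold against 2.11%. In FD2M1 neoSFs, 13 were more than 2-fold higher, namely TBX18, DLX1, DLX2, DLX4, MSX1, MSX2, OSR1, SIX2, EYA4, EBF1, EBF2, EBF3 and MEOX2. In LSD1 neoSFs, TBX5, ALX1, ALX4 and SHOX2 were. The widest gaps were 18.5-fold for ALX1, 16.7-fold for SHOX2 and 14.8-fold for ALX4, all higher in LSD1, and 9.97-fold for MSX2, 8.77-fold for TBX18 and 8.52-fold for DLX1, all higher in FD2M1. TBX3, PRRX2, PBX2, PBX3 and HAND2 differed 1.09-fold to 1.29-fold. Between the cultures the summed NRC of skeletal myoblast markers was 1318 in FD2M1 and 352 in LSD1 and that of neural progenitor markers 8192 and 24911, while the fibroblast sums were 1.63e+06 and 1.77e+06. Their part in the difference was not tested.

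**Figure D3:**
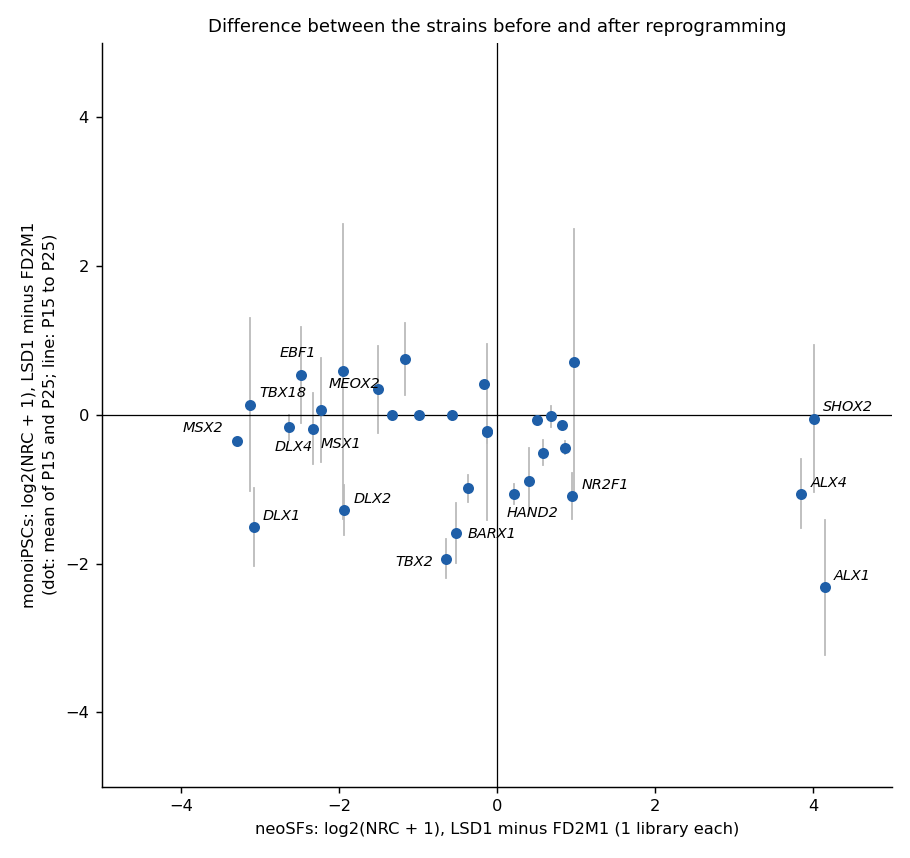
Difference between LSD1 and FD2M1 cells in log2(NRC + 1) for the 32 tested factors that averaged 20 NRC or more in neoSFs, shown for neoSFs (horizontal, 1 library each) and in monoiPSCs (vertical; dot, mean of P15 and P25; gray line, P15 to P25). ALX1, ALX4 and SHOX2 lie near 4 in neoSFs and at or below 0 in monoiPSCs, and MSX2 and TBX18 lie near -3 in neoSFs and near 0 in monoiPSCs, while DLX1 and DLX2 are below 0 on both axes.

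Of the 6 factors with a gap over 8-fold between the cultures, DLX1 and MSX2 kept their direction between the lines at both passages. ALX1 and ALX4 had the opposite direction at both passages, and TBX18 and SHOX2 changed direction between passages. Some of these directions rest on few counts. In FD2M1 and LSD1, ALX4 had 8 and 5 counts at P15 and 3 and 0 at P25. TBX18 had 2 and 8 counts at P15 and 10 and 5 at P25, and ALX1 had 4 counts in LSD1 P25. MSX2 was 9.97-fold higher in FD2M1 than in LSD1 neoSFs and lay between 46.4 and 72.3 NRC in all 4 monoiPSC libraries. ALX1, the gene with the widest gap toward LSD1 in neoSFs, was higher in the FD2M1 line at both passages. In MSX1, MSX2, ALX1, EYA1 and HAND2, 5 of 34 factors (14.7%, against 5.84% of all genes tested), the change from neoSF to monoiPSC had opposite signs in the strains. Whether the change from neoSF to monoiPSC differed between the strains was tested by an interaction term, whose spread comes from the passages of each line alone. No factor passed in edgeR's quasi-likelihood test (background 0.0841% of 13072 genes), 9 of 34 (26.5%) had an unadjusted p under 0.05 (background 9.13%), and 6 of 34 (17.6%) passed in DESeq2 (background 2.33%). The 6 were EBF1, MSX2, NR2F1, SHOX2, ALX4 and ALX1. The log2 change of EBF1 was larger in LSD1 than in FD2M1 cells by 2.95 ± 0.62 and that of MSX2 by 2.94 ± 0.61 (edgeR quasi-likelihood adjusted p = 0.231 and 0.227). For NR2F1, SHOX2, ALX4 and ALX1 the difference was -2.10 ± 0.47, -4.27 ± 1.07, -5.14 ± 1.55 and -6.06 ± 1.84 (edgeR quasi-likelihood adjusted p = 0.255, 0.302, 0.397 and 0.397).

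Within the monoiPSCs, 23 factors had an NRC of at least 20 in all 4 libraries, and these varied more than genes at large. Since the list was chosen with earlier results of these data known, the shares set against all genes here and below are descriptions. The highest library was more than 4-fold above the lowest for TBX2, DLX1, DLX2 and PRRX2, 4 of 23 (17.4%) against 3.03% of 12252 genes, and more than 2-fold above it for 13 of 23 (56.5%) against 19.5%. FD2M1 P15 was the highest library for 13 of 23 (56.5%), against 29.0% of all genes, and LSD1 P25 for 5 of 23 (21.7%), against 31.3%. FD2M1 P25 was highest for 4 factors (17.4%, against 17.1%) and LSD1 P15 for PBX3 alone (4.35%, against 22.5%). The passage and line comparisons below use the same 4 libraries.

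Between passages, 12 of 23 factors (52.2%) were lower at P25 in both lines, against 29.6% of 12252 genes, and 6 (26.1%) were higher in both, against 29.0%. TBX2 went from 3492 to 1980 in the FD2M1 line and from 1094 to 432.2 in the LSD1 line, a log2 change of -1.09 ± 0.19. PRRX2 went from 308.2 to 118.6 and from 136.7 to 67.0 (-1.22 ± 0.30), DLX1 from 643.0 to 209.3 and from 156.3 to 105.0 (-1.12 ± 0.32) and DLX2 from 1184 to 449.9 and from 387.0 to 232.4 (-1.08 ± 0.22). NR2F2 was lower by a similar amount in each line (-0.63 ± 0.17). MEOX2 was higher at P25 in both lines, from 53.7 to 204.3 and from 91.8 to 131.3 (1.20 ± 0.45). None of these passed in edgeR's quasi-likelihood test, with adjusted p of 0.204 for TBX2, 0.354 for PRRX2, 0.414 for DLX1, 0.275 for DLX2, 0.387 for NR2F2 and 0.509 for MEOX2. In that test and in limma 0 of 23 factors and, in edgeR, 0 of 12252 genes passed. At an unadjusted p under 0.05, 10 of 23 factors (43.5%) were counted against 9.35% of genes, and DESeq2 called TBX2 and DLX2 (adjusted p = 0.00135 and 0.0326), 8.70% against 0.939%.

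**Figure D4:**
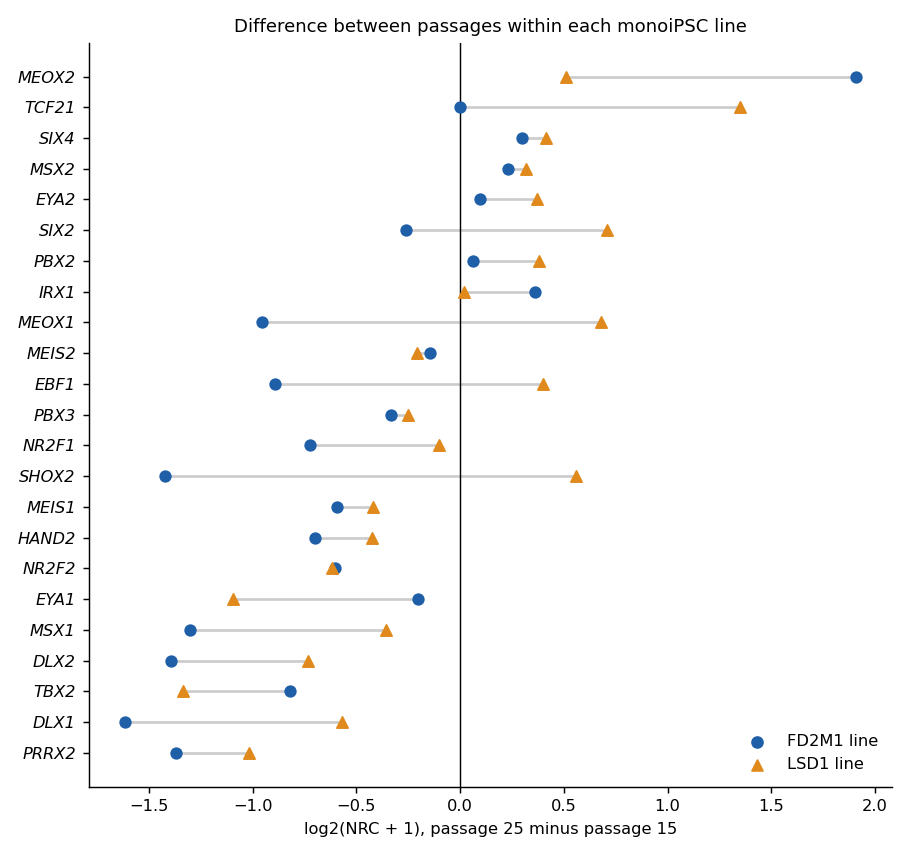
Difference in log2(NRC + 1) between passages 25 and 15 within the FD2M1 line (blue circles) and the LSD1 line (orange triangles) for the 23 factors expressed in all 4 monoiPSC libraries, ordered by the fitted passage effect. Both symbols are left of 0 for 12 factors, with PRRX2, DLX1, TBX2 and DLX2 at the bottom, and right of 0 for 6, with MEOX2 at the top.

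Between lines, 13 of 23 factors (56.5%) were lower in LSD1 than in FD2M1 at both passages, against 32.0% of 12252 genes, and PBX3 and SIX2 (8.70%) were higher at both, against 30.3%. TBX2 differed most, with 1094 against 3492 NRC at P15 and 432.2 against 1980 at P25, a log2 difference of -1.93 ± 0.19, LSD1 minus FD2M1. DLX1 and DLX2 followed with -1.52 ± 0.32 and -1.28 ± 0.22, and NR2F1 and HAND2 with -1.09 ± 0.22 and -1.06 ± 0.21. In edgeR's quasi-likelihood test the adjusted p was 0.13 for TBX2, 0.18 for DLX1, 0.136 for DLX2, 0.169 for NR2F1 and 0.165 for HAND2. There and in limma 0 of 23 factors passed, and in edgeR 0 of 12252 genes did. At an unadjusted p under 0.05, 9 of 23 factors (39.1%) were counted against 14.2% of genes. DESeq2 called these 5 genes (adjusted p of 5.67e-12 for TBX2 and 0.00244 to 0.0345 for the others), 21.7% of 23 factors against 1.57% of genes. With 1 line for each strain, the lines carried 2 libraries each that share a culture history.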

How the data were processed

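The authors aligned the reads to MonDom5 (RefSeq genes) in StrandNGS and filtered them on quality. Of the values above 0 in the deposited table of raw counts, 87.1% were not whole, and this table was used as estimated counts, rounded for the tests. The authors also deposited log2 values scaled by DESeq. In each library a single factor (0.515 to 1.951) turns the count into the value before the log, here the NRC, with results below 1 set to 0. An NRC of 20 in both neoSF or all 4 monoiPSC libraries was required for testing.

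Tests used edgeR 4.0.16 (R 4.3.3; TMM scaling, glmQLFit and glmQLFTest) over all genes, with Benjamini-Hochberg adjustment. The cell type test used all 6 libraries with no covariate, the passage test had strain as a covariate, the line test had passage, and the interaction had both strain and cell type. The SE is the fold change divided by the square root of F. DESeq2 1.42.0 and limma 3.58.1 were alternatives. The floor is 3 counts in each library of a group, and limits use the monoiPSC or neoSF library where 3 counts weigh most. The counting of read pairs and of strand is not given in the sources used here, so overlapping and antisense genes cannot be told apart. No gene lengths were used, so a ratio between genes within a library is not their relative abundance. Such ratios are descriptions, and between cell types they also carry the difference in sequencing. Scripts were tested on simulated data.

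All members with a row are accounted for, DE members first in a family. Of related genes, the 2 largest changes in each direction are named among DE genes that average 100 NRC or more in their higher group. The members and lists were chosen with earlier results of these data known. Differences of 4-fold and 8-fold between neoSF libraries were chosen after seeing the data. Strain ties a line to the neoSFs it came from, so strain was also fitted as a block. Over 13072 genes the LSD1 minus FD2M1 difference in neoSFs correlated with that in monoiPSCs at r = 0.076 for P15 and -0.0022 for P25. Gene order came from the RefSeq table of mMonDom1.pri, another assembly, matched by gene number for all 38 genes, and no coordinates are given.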

Additional observations from a re-analysis of the deposited data

Results flagged for a closer look

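In the 4 monoiPSC libraries, 1 library stood apart from the other 3 by Dixon's test for TBX4 (1.26 NRC in FD2M1 P25, 0 in the others), TBX20 (0.515 NRC in LSD1 P25, 0 in the others) and PBX2 (10228 NRC in LSD1 P15, the lowest). These were 3 of 36 genes with a range above 0, and chance flags about 1 in 20. The values of TBX4 and TBX20 stand for 2 counts and 1 count.

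For MSX1, MSX2, ALX1, EYA1 and HAND2, both passages of a line moved one way from the neoSFs of their strain in FD2M1 and the other way in LSD1. Some of these moves were small, such as 0.02 and 0.34 for MSX2 in LSD1 and 0.27 and 0.07 for EYA1 in FD2M1 (log2(NRC + 1), P15 and P25 against neoSF). These are 5 of 34 tested factors (14.7%), against 5.84% of all genes tested. The LSD1 change minus the FD2M1 change was 2.01 on the log2 scale for MSX1, 2.94 for MSX2, -6.06 for ALX1, -1.21 for EYA1 and -1.32 for HAND2. None passed the interaction test of edgeR (adjusted p = 0.558, 0.227, 0.397, 0.69 and 0.584). MSX2 and ALX1 passed in DESeq2 (adjusted p = 0.0243 and 0.0242).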

How the results depend on the processing

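Each tested factor was refitted under 16 alternatives, except ALX1 and ALX4, which did not pass the raw count filter and had 15. Of the 24 called, 15 kept their call under every alternative run on them other than the 4-fold threshold, 9 lost it under at least 1, and MSX2 and SHOX2 changed sign. Among the 15, TBX3, TBX15, TBX18, DLX3, DLX4, ALX4, OSR1, TCF21 and MEOX1 had entered the test through the group in which they were higher. The refits that left out libraries used the same genes, so they do not test that selection. Of the 10 that were not called, ALX1, SIX4, EBF1 and EBF3 were called under at least 1. The factors called lower numbered 16 with RLE scaling or unrounded counts, 17 with DESeq2, 14 with limma, 19 without the expression filter, 15 with a raw count filter (which leaves out ALX4), 12 with P15 or with P25 alone, and 11 at the 4-fold threshold, where 6 were higher. Leaving out 1 library at a time gave 12 to 13 lower and 7 to 8 higher, 4 to 7 related genes lower and 7 to 8 higher, and 2629 to 2834 of all genes lower and 3043 to 3120 higher. With P25 alone, TBX2, MSX2, SHOX2, SIX2, EYA4 and MEOX2 lost their call, and SIX4 and EBF3 gained one. With P15 alone, MSX2, SHOX2, BARX1 and NR2F1 lost theirs. With strain as a replicate block, 14 factors were lower and 8 higher, and MSX2 and SHOX2 were lost (adjusted p = 0.0928 and 0.163). Of all genes, 1476 were lower and 1806 higher at the 4-fold threshold. The related genes had 3 lower with P25 alone and 4 higher at the 4-fold threshold. The median log2 fold change of the factors was -0.97 with the raw count filter and -1.44 (without FD2M1 P15) to -0.41 (without the FD2M1 neoSF library) when 1 library was left out.

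Leaving out 1 library at a time turned the sign of 7 factors. The log2 fold change ran from -1.10 to 1.96 in DLX1, -1.16 to 0.76 in DLX2, -1.30 to 1.04 in MSX1, -2.84 to 0.46 in MSX2 and -0.31 to 0.25 in HAND2, with the sign turned without the FD2M1 neoSF library (HAND2 also without FD2M1 P15). It ran from -3.66 to 0.56 in ALX1 and -3.25 to 0.82 in SHOX2, turned without the LSD1 neoSF library. DLX1 had 0.11 with the strain block and 0.24 with P15 alone. HAND2 had -0.15 with limma, -0.078 with the block and -0.28 with P25 alone. For the passages, fits of 3 libraries with no block gave 0.13 for TBX2 and 0.10 for HAND2 without FD2M1 P15, and 2.19e-05 for EYA1 without LSD1 P25. The lines are unequal between passages in such fits, so line and passage cannot be told apart in these values.

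For passage, line and interaction, DESeq2 called 2, 5 and 6 factors where edgeR called 0. Leaving out 1 library gave 0 to 1 factor for passage (TBX2 without FD2M1 P25) and 0 to 1 for the interaction (ALX1 without LSD1 P15), and the fits with no replicate block called 0 for passage and line. On the scale of the NRC the limits were 505-fold for DLX3, 356-fold for OSR1 and 16.9-fold for TCF21, and the ratios 486 for DLX4 and 69.3 for MEOX1. The cause of these changes was not tested.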
